A study of Mus musculus with 9 samples.

Results

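The 6 genes described here encode costimulatory members of the tumour necrosis factor (TNF) receptor and ligand families: the receptors Tnfrsf4 (OX40), Tnfrsf18 (GITR), Tnfrsf9 (CD137) and Cd27, and the ligands Cd40lg (CD40 ligand) and Tnfsf11 (RANKL). They were taken by name from the 31053 genes of the count matrices, in which each name marked 1 row. Thymocytes came from the thymus of adult female mice, which carried CD3ε I173A, an amino acid change in one of the CD3 chains that signal for the T cell receptor (TCR), or were wild type (WT). Cells of I173A mice carried hashtag 6 and cells of WT mice hashtag 4, and live cells were sorted into a CD4 gate (CD4 only), a CD8 gate (CD8 only) and a DP gate (both, double-positive) for 10x Genomics 5′ v2 libraries. Each of the 3 RNA libraries held both genotypes of 1 gate, so that I173A and WT cells of a gate share a library while the gates do not. The sources used here do not give the number of mice, the zygosity of the substitution or the strain. Each genotype was therefore 1 sample per gate, no test was run, and every interval below is a 95% interval that covers counting error only.

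Costimulatory TNF receptors are engaged on T cells by trimeric ligands on other cells and recruit TRAF adaptors, which lead to NF-κB activation. In the thymus, GITR, OX40 and CD137 are known from thymocytes that receive strong TCR signals, including precursors of regulatory T cells, while CD27 is present on most thymocytes. RANKL and CD40 ligand on CD4 single-positive thymocytes act on medullary epithelial cells, antigen-presenting cells and B cells of the thymus, which carry the receptors RANK and CD40.

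After filtering, the 6 groups held 2516 to 3109 cells with 8659807 to 22544044 UMIs (unique molecular identifiers) and a median of 2750.5 to 6079 UMIs per cell. The gates matched their labels: Cd4 was at 394 CPM (UMIs of the gene per 1000000 UMIs of the group) in I173A and 371 CPM in WT cells of the CD4 gate, against 0.964 CPM in I173A and 3.99 CPM in WT cells of the CD8 gate. Cd8a was at 1077 CPM in I173A and 1102 CPM in WT cells of the CD8 gate. The DP gate held Cd4 at 784 CPM in I173A and 653 CPM in WT cells, and Cd8a at 2520 CPM in I173A and 2320 CPM in WT cells. In the CD4 gate Cd8a was at 40.4 CPM in I173A and 27.9 CPM in WT cells. Cd8b1 was at 93.4 CPM in I173A and 79.7 CPM in WT cells there, and the part of such cells in the ratios was not tested. Cycling-like clusters made up 8.18% of I173A and 15.8% of WT cells in the CD8 gate and 4.25% of I173A and 14.3% of WT cells in the DP gate, but 1.88% of I173A and 1.83% of WT cells in the CD4 gate. Cycling cells held many UMIs, so that they gave 14.03% of the UMIs of I173A and 39.4% of those of WT cells in the DP gate, and 17.5% of those of I173A and 35.6% of those of WT cells in the CD8 gate. Results in those gates are therefore given with and without these clusters. Of the myeloid and dendritic markers, the summed level in the CD8 gate was 208 CPM in I173A and 108 CPM in WT cells, of which Cst3 gave 182 CPM in I173A and 106 CPM in WT cells and H2-Aa 25.5 CPM in I173A and 0.754 CPM in WT cells. Lyz2, Csf1r and Itgax stayed below 1 CPM in both genotypes of that gate. Lyz2 was at 9.93 CPM in I173A and 3.66 CPM in WT cells of the DP gate, and H2-Aa at 5.66 CPM in I173A and 2.08 CPM in WT cells. There the summed myeloid and dendritic level was 182.45 CPM in I173A and 182.02 CPM in WT cells. In the CD4 gate the erythroid genes Hba-a1 and Hbb-bs had no UMI in I173A cells and summed to 5.94 CPM in WT cells. Markers of γδ T cells summed to 14.1 CPM in I173A and 29.7 CPM in WT cells of the CD8 gate and to 25.4 CPM in I173A and 44.6 CPM in WT cells of the DP gate, and B cell markers, mostly Cd79b, to 60.2 CPM in I173A and 37.4 CPM in WT cells of the DP gate. Trdc gave most of the γδ sums. Without cycling clusters it was at 3.16 CPM in I173A and 3.17 CPM in WT cells of the CD8 gate. In the DP gate it was then at 16.9 CPM in I173A and 20.2 CPM in WT cells, and Cd79b at 64.6 CPM in I173A and 54.2 CPM in WT cells. The part of such other cells in the results was not tested. Libraries shared 109 to 124 barcodes in pairs, with 43 to 52 of them kept in both libraries.

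Tnfrsf4, Tnfrsf18 and Tnfrsf9 lie on the same chromosome and had their highest levels in the same cluster of CD4 gate cells, so the sequences around their start sites are shown for these 3 genes. In the RefSeq annotation of GRCm38.p6, Tnfrsf4 (ENSMUSG00000029075) spans positions 156013595 to 156016613 of chromosome 4 and Tnfrsf18 (ENSMUSG00000041954) positions 156026322 to 156028894, with 9708 bases and 1 other annotated gene between them. Tnfrsf9 (ENSMUSG00000028965) lies at positions 150920155 to 150946104 of the same chromosome and has 2 start sites in the table. Each window runs from 250 bases before to 50 bases after a start site on the plus strand, at chr4:156013445-156013744 for Tnfrsf4 (whose start site in the promoter table is position 156013695, inside the span above), chr4:156026072-156026371 for Tnfrsf18, chr4:150919905-150920204 for the first start of Tnfrsf9 and chr4:150927749-150928048 for its second start. Capitals mark matches on either strand to the κB motif, the AP-1 motif TGANTCA, the orphan nuclear receptor motif AAAGGTCA or the EGR motif GCGNGGGCG.
Tnfrsf4: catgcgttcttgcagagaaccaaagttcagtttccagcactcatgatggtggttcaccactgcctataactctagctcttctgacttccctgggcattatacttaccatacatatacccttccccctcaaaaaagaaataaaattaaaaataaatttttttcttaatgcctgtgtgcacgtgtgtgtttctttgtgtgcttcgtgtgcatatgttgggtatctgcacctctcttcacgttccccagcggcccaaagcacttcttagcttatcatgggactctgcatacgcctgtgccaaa
Tnfrsf18: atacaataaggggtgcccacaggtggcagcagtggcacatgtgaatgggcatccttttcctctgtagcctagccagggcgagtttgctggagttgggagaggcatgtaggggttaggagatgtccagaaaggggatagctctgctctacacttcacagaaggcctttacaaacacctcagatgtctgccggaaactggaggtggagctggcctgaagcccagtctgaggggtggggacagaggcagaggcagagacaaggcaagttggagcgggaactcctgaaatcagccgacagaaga
Tnfrsf9, first start: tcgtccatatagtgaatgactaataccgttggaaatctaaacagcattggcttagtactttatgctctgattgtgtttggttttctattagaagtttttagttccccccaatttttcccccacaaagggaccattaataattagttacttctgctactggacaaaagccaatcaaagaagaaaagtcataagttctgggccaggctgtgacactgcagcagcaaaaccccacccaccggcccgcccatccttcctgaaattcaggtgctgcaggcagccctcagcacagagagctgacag
Tnfrsf9, second start: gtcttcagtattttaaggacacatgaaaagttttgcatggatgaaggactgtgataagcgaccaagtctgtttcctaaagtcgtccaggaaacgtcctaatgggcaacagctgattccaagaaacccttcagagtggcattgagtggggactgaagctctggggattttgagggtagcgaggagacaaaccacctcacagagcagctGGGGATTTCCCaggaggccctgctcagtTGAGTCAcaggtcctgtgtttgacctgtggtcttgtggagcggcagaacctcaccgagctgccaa
Of these 4 windows, the second of Tnfrsf9 held matches, namely a pair of overlapping κB matches that begin at positions -43 and -42 from the start site and an AP-1 match that begins at position -15. Among all 32851 RefSeq windows of this length, 8.46% held a κB match, 7.81% an AP-1 match, 1.51% an AAAGGTCA match and 5.55% an EGR match. The counts are per gene and do not tell the 2 start sites of Tnfrsf9 apart. Cd27 (ENSMUSG00000030336) lies on chromosome 6 at 125232620 to 125237136, Tnfsf11 (ENSMUSG00000022015) on chromosome 14 at 78277446 to 78308043 and Cd40lg (ENSMUSG00000031132) on chromosome X at 57212143 to 57224042. The windows of Cd27 and Tnfsf11 held none of the 4 motifs.

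The first comparison asked in which gate each gene was present, and the 6 genes fell into 4 patterns. Tnfrsf4 and Cd40lg were near 0 outside the CD4 gate, Tnfsf11 was low there, Tnfrsf9 was near 0 in the DP gate alone, and Tnfrsf18 and Cd27 were present in every gate. In WT cells, 5 of the 6 genes were at least 2-fold higher in the CD4 than in the DP gate, a size that 8.59% of the 9528 genes that averaged 5 CPM or more across the compared gates reached in that direction. Against the CD8 gate, 4 of the 6 genes were at least 2-fold higher in WT cells of the CD4 gate, with 4.88% of 9253 genes. In WT cells of the DP gate Tnfrsf4, Tnfrsf9, Cd40lg and Tnfsf11 were at most 2.47 CPM. In those of the CD8 gate Tnfrsf4 and Cd40lg were at most 2.53 CPM. Such genes reach an average of 5 CPM through the CD4 gate alone. Their place in these counts was thus fixed by that limit and adds no support. Without cycling clusters the ratio of Tnfrsf18 to the CD8 gate was 1.80 in WT cells, under 2-fold. In I173A cells Tnfrsf18 was then at 188 CPM in the CD4 gate and 82.9 CPM in the CD8 gate.

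**Figure D1:**
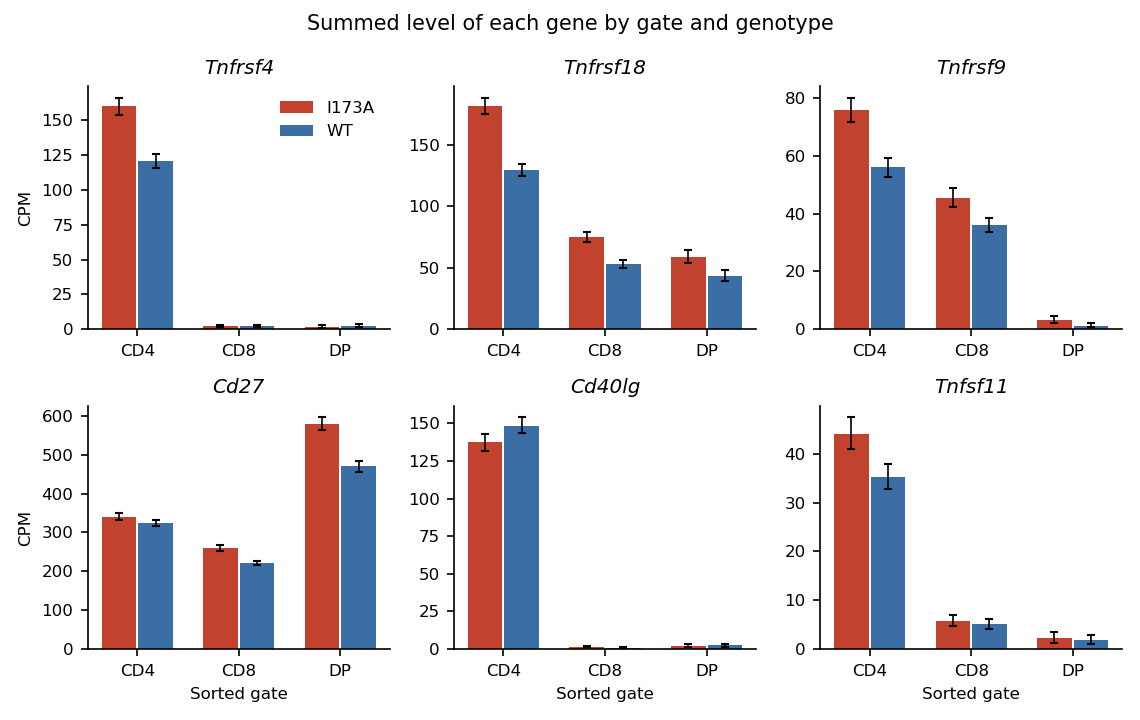
Level of each gene in CPM (vertical axes, from 0) by sorted gate (horizontal axes), with I173A cells in red and WT cells in blue; bars are 1 sample each and lines are exact Poisson 95% intervals. The Tnfrsf4 and Cd40lg bars outside the CD4 gate are at most 2.53 CPM, while Cd27 reaches 579.57 CPM in I173A and 469.87 CPM in WT cells of the DP gate.

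Tnfrsf4, the receptor of OX40 ligand, was at 160.02 CPM in I173A and 121 CPM in WT cells of the CD4 gate. It was at 2.04 CPM in I173A and 2.53 CPM in WT cells of the CD8 gate, and at 1.62 CPM in I173A and 2.27 CPM in WT cells of the DP gate. The CD4 gate was thus 78.4-fold above the CD8 gate in I173A cells (56.5 to 112) and 47.7-fold in WT cells (36.7 to 63.2; 33.2 without cycling clusters), while the CD8 and DP gates did not separate beyond counting error in either genotype. Before thinning, a Tnfrsf4 UMI was seen in 29.4% of I173A and 28.2% of WT cells of the CD4 gate, 1.08% of I173A and 1.43% of WT cells of the CD8 gate, and 0.407% of I173A and 0.755% of WT cells of the DP gate. Such shares are near those of Cd40lg in the same gates, given below, and a level this low is not read as expression over a whole gate.

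Tnfrsf18, which binds GITR ligand, was at 182 CPM in I173A and 129 CPM in WT cells of the CD4 gate, at 74.8 CPM in I173A and 53.2 CPM in WT cells of the CD8 gate, and at 58.8 CPM in I173A and 43.6 CPM in WT cells of the DP gate. The order CD4, CD8, DP held in both genotypes, and the CD8 gate was above the DP gate by 1.27-fold in I173A (1.15 to 1.41) and 1.22-fold in WT cells (1.09 to 1.36). Unlike Tnfrsf4 and Tnfrsf9 it was not scarce in the DP gate, with a UMI in 16.3% of I173A and 15.1% of WT cells of the DP gate.

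Tnfrsf9, which binds CD137 ligand, was at 75.9 CPM in I173A and 56.1 CPM in WT cells of the CD4 gate, at 45.5 CPM in I173A and 35.97 CPM in WT cells of the CD8 gate, and at 3.23 CPM in I173A and 1.28 CPM in WT cells of the DP gate. In WT cells it was the 1 gene at least 2-fold higher in the CD8 than in the DP gate (28.0-fold, 16.3 to 52.8) among the 3 of the set that averaged 5 CPM or more across those gates, and 6.88% of 9425 genes were. At 1.28 CPM in the DP gate it reached that average through the CD8 gate alone, which fixed its place in this count. In the CD4 gate it was 1.67-fold above the CD8 gate in I173A cells (1.53 to 1.82) and 1.56-fold in WT cells (1.42 to 1.71), but without cycling clusters the WT value was 1.10. In I173A cells Tnfrsf9 was then still higher in the CD4 gate, at 79.0 CPM against 53.0 CPM in the CD8 gate.

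Cd27, which is engaged by CD70, ran the other way. It was at 579.57 CPM in I173A and 469.87 CPM in WT cells of the DP gate, against 340.08 CPM in I173A and 324 CPM in WT cells of the CD4 gate and 259 CPM in I173A and 221 CPM in WT cells of the CD8 gate. Among the same 3 genes it was the 1 lower by at least 2-fold in WT cells of the CD8 than of the DP gate (0.471, 0.453 to 0.491; 0.417 without cycling clusters), as were 19.1% of 9425 genes. A Cd27 UMI was seen in 72.7% to 82.7% of cells in every group before thinning. The higher DP level is relative to the UMIs of the group and does not hold per cell. Median depth was 2750.5 UMIs in I173A and 2906.5 in WT cells of the DP gate, against 5786.5 and 6079 in the CD4 gate. Cells with Cd27 held a mean of 2.51 UMIs of it in I173A and 2.60 in WT cells of the DP gate. In the CD4 gate they held 2.61 in I173A and 2.59 in WT cells.

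Cd40lg, the CD4 T helper ligand of CD40, was at 137 CPM in I173A and 149 CPM in WT cells of the CD4 gate. It was at 1.64 CPM in I173A and 0.976 CPM in WT cells of the CD8 gate and at 2.08 CPM in I173A and 2.47 CPM in WT cells of the DP gate. In the CD4 gate a Cd40lg UMI was seen in 38.6% of I173A cells, at a median depth of 5786.5 UMIs, and in 43.9% of WT cells, at 6079 UMIs, against 0.731% of I173A cells, at 5271.5 UMIs, and 0.630% of WT cells, at 5704 UMIs, in the CD8 gate. Shares near 1% at this depth are not read as expression over a whole gate, and the part of background in them was not tested. The UMIs were not spread evenly. In the CD8 gate, 9 of the 29 I173A UMIs lay in 4 of the 83 agonist-signalled-like cells (15.6 CPM, 7.13 to 29.6). Of the 22 WT UMIs, 2 lay in 2 of the 94 such cells (2.82 CPM, 0.341 to 10.2). In the DP gate, 17 of the 18 I173A and 23 of the 25 WT UMIs of Cd40lg lay in cells with a productive TCR α chain. The early signalled-like cluster 4 held 5 of the I173A UMIs in 4 of 39 cells and 15 of the WT UMIs in 4 of 33 cells. A further 9 of the I173A UMIs lay in 3 cells of the rearranging DP-like cluster 5, where WT cells had none.

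Tnfsf11, the ligand of RANK, was at 44.1 CPM in I173A and 35.2 CPM in WT cells of the CD4 gate. It was at 5.73 CPM in I173A and 5.06 CPM in WT cells of the CD8 gate and at 2.19 CPM in I173A and 1.88 CPM in WT cells of the DP gate. The CD8 gate was 2.61-fold above the DP gate in I173A cells (1.59 to 4.51) and 2.69-fold in WT cells (1.65 to 4.64), so the gene was low but not at the same level in both.

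The second comparison set I173A against WT cells within each gate. Tnfrsf4, Tnfrsf18 and Tnfrsf9 were each higher in I173A cells of the CD4 gate by about 1.3-fold to 1.4-fold, Tnfsf11 was higher by about 25%, Cd27 was close to even and Cd40lg was slightly lower. Of the 6 genes, 4 were at least 25% higher in I173A cells, where 5.00% of the 9243 genes that averaged 5 CPM or more across the genotypes were, and none was lower by the matching 20%, where 2.08% of genes were. The median log2 ratio of the 6 genes was 0.37, against 0.04 over all genes.

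The ratio of Tnfrsf4 in the CD4 gate was 1.33 (1.26 to 1.40), from 2683 UMIs in I173A and 2478 UMIs in WT cells. Tnfrsf18 had a ratio of 1.40 (1.33 to 1.48), from 3049 UMIs in I173A and 2659 in WT cells. Tnfrsf9 had a ratio of 1.35 (1.2498 to 1.47), from 1273 UMIs in I173A and 1151 in WT cells. All 3 intervals lie above 1. Without cycling clusters the ratios were 1.34 for Tnfrsf4, 1.42 for Tnfrsf18 and 1.38 for Tnfrsf9. The ratio of Tnfsf11 was 1.2535 (1.13 to 1.39), that of Cd27 was 1.05 (1.01 to 1.09) and that of Cd40lg was 0.926 (0.876 to 0.977). Cd40lg is the 1 gene of the set whose interval in this gate lies below 1. With each cluster given the same weight in both genotypes, the ratios were 1.26 for Tnfrsf4, 1.37 for Tnfrsf18, 1.22 for Tnfrsf9 and 1.18 for Tnfsf11, so that Tnfrsf9 and Tnfsf11 were no longer 25% higher. Tnfsf11 lies at the limit and was also just under it with a stricter hashtag call (1.2467), a looser one (1.2447), mitochondrial, ribosomal and TCR genes out of the total (1.2405) and the median gene ratio set to 1 (1.23).

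Shares of cells with a UMI were compared at one depth. With every cell thinned to 1500 UMIs, a Tnfrsf4 UMI was found in 13.7% of I173A (12.4% to 15.1%) and 12.3% of WT cells (11.1% to 13.5%) of the CD4 gate, and the intervals overlap. Tnfrsf18 was found in 20.9% of I173A (19.4% to 22.5%) and 17.9% of WT cells (16.6% to 19.3%), where they do not overlap. Tnfrsf9 was found in 6.24% of I173A (5.35% to 7.24%) and 4.74% of WT cells (4.01% to 5.55%). Of the other genes of this gate, Cd40lg was found in 15.3% of I173A and 16.9% of WT cells, Tnfsf11 in 6.01% of I173A and 5.00% of WT cells, and Cd27 in 41.9% of I173A and 40.04% of WT cells. Among the 6 genes of the gate the intervals were apart for Tnfrsf18 alone. The share of all genes with intervals apart at this depth was not computed, so this count is a description. For Tnfrsf4 the cells that had it also held more of it, with a mean of 3.42 UMIs per positive cell in I173A and 2.83 in WT cells before thinning, and the highest cell held 66 UMIs in I173A and 52 in WT cells. This spread between cells is not part of the intervals on the ratios, which cover counting error only.

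**Figure D2:**
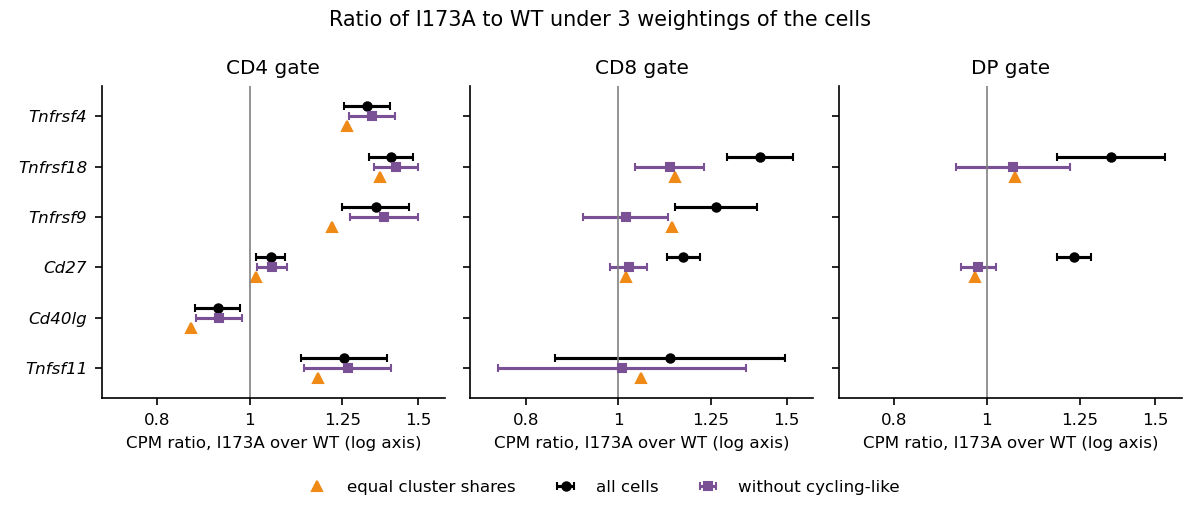
Ratio of CPM in I173A over WT cells (horizontal axis, log scale) for genes at or above 5 CPM in each gate, for all cells (black circles), without cycling-like clusters (purple squares) and with each cluster given the same weight in both genotypes (orange triangles); lines are 95% intervals of counting error. In the CD4 gate the values with and without cycling-like clusters lie together, while in the CD8 and DP gates the black circles of Tnfrsf18, Cd27 and, in the CD8 gate, Tnfrsf9 lie to the right of the other markers.

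In the CD8 gate, 2 of the 4 genes at or above 5 CPM were at least 25% higher in I173A cells, Tnfrsf18 at 1.41 (1.30 to 1.52) and Tnfrsf9 at 1.27 (1.15 to 1.40). Over all genes of that gate 10.6% were higher by this size and 10.9% lower, and none of the 4 was lower. Cd27 had a ratio of 1.17 (1.12 to 1.22) and Tnfsf11 one of 1.13 (0.858 to 1.49). Without cycling clusters the ratios were 1.13 for Tnfrsf18 (1.04 to 1.23), 1.02 for Tnfrsf9 (0.919 to 1.13), 1.03 for Cd27 (0.981 to 1.07) and 1.01 for Tnfsf11 (0.748 to 1.36). None was then 25% higher, where 4.25% of 8910 genes were. Tnfrsf9 was also under that size, cycling clusters included, with a looser hashtag call (1.24) and with the median gene ratio set to 1 (1.2478). At 1500 UMIs per cell, cycling clusters included, Tnfrsf18 was found in 11.8% of I173A and 8.93% of WT cells and Tnfrsf9 in 5.49% of I173A and 4.32% of WT cells of the CD8 gate.

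In the DP gate, Tnfrsf18 had a ratio of 1.35 (1.19 to 1.54) and Cd27 one of 1.23 (1.19 to 1.28), so that 1 of the 2 genes at or above 5 CPM was at least 25% higher in I173A cells. In that gate 16.3% of 9448 genes were higher by this size and 10.5% lower, and neither gene was lower. Without cycling clusters Tnfrsf18 was at 65.1 CPM in I173A and 61.2 CPM in WT cells, a ratio of 1.07 (0.929 to 1.22). Cd27 was then at 642 CPM in I173A and 656 CPM in WT cells, a ratio of 0.979 (0.939 to 1.02), so its direction turned. Neither was then 25% higher, where 8.05% of 9350 genes were. At 1500 UMIs per cell, cycling clusters included, Cd27 was found in 56.2% of I173A and 52.4% of WT cells and Tnfrsf18 in 8.85% of I173A and 7.80% of WT cells of the DP gate.

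With cycling clusters left out of the CD4 gate, 4 of the 6 genes were still at least 25% higher in I173A cells, where 5.21% of 9149 genes were, and all 4 were the genes of the full gate. The largest cycling-like cluster, cluster 6, was low in these genes: Tnfrsf18 was at 10.8 CPM in I173A and 8.60 CPM in WT cells of it in the CD8 gate. It was at 21.3 CPM in I173A and 17.7 CPM in WT cells in the DP gate. Cd27 was at 115 CPM in I173A and 110 CPM in WT cells of that cluster in the CD8 gate, and at 195 CPM in I173A and 188 CPM in WT cells in the DP gate. The cycling-like cluster 12 of the CD8 gate was higher, with Tnfrsf18 at 53.9 CPM in I173A and 41.1 CPM in WT cells. Its Cd27 was at 184 CPM in I173A and 178 CPM in WT cells. The scarce Tnfrsf9 had 28 UMIs in 16 of the I173A cells and 13 UMIs in 13 of the WT cells of the DP gate, and 12 of the I173A UMIs lay in 4 agonist-signalled-like cells.

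Cells of all gates were clustered together with the 6 genes and the other TNF family genes left out of the clustering, and clusters were named from markers that share none of them. Cluster 7, named agonist-signalled-like from Nr4a1, Nfkbid, Pdcd1, Bcl2l11, Ikzf2, Nr4a3 and Gadd45b, held 251 I173A and 257 WT cells of the CD4 gate and 83 I173A and 94 WT cells of the CD8 gate. Since expression drew the clusters, levels in them are a description.

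**Figure D3:**
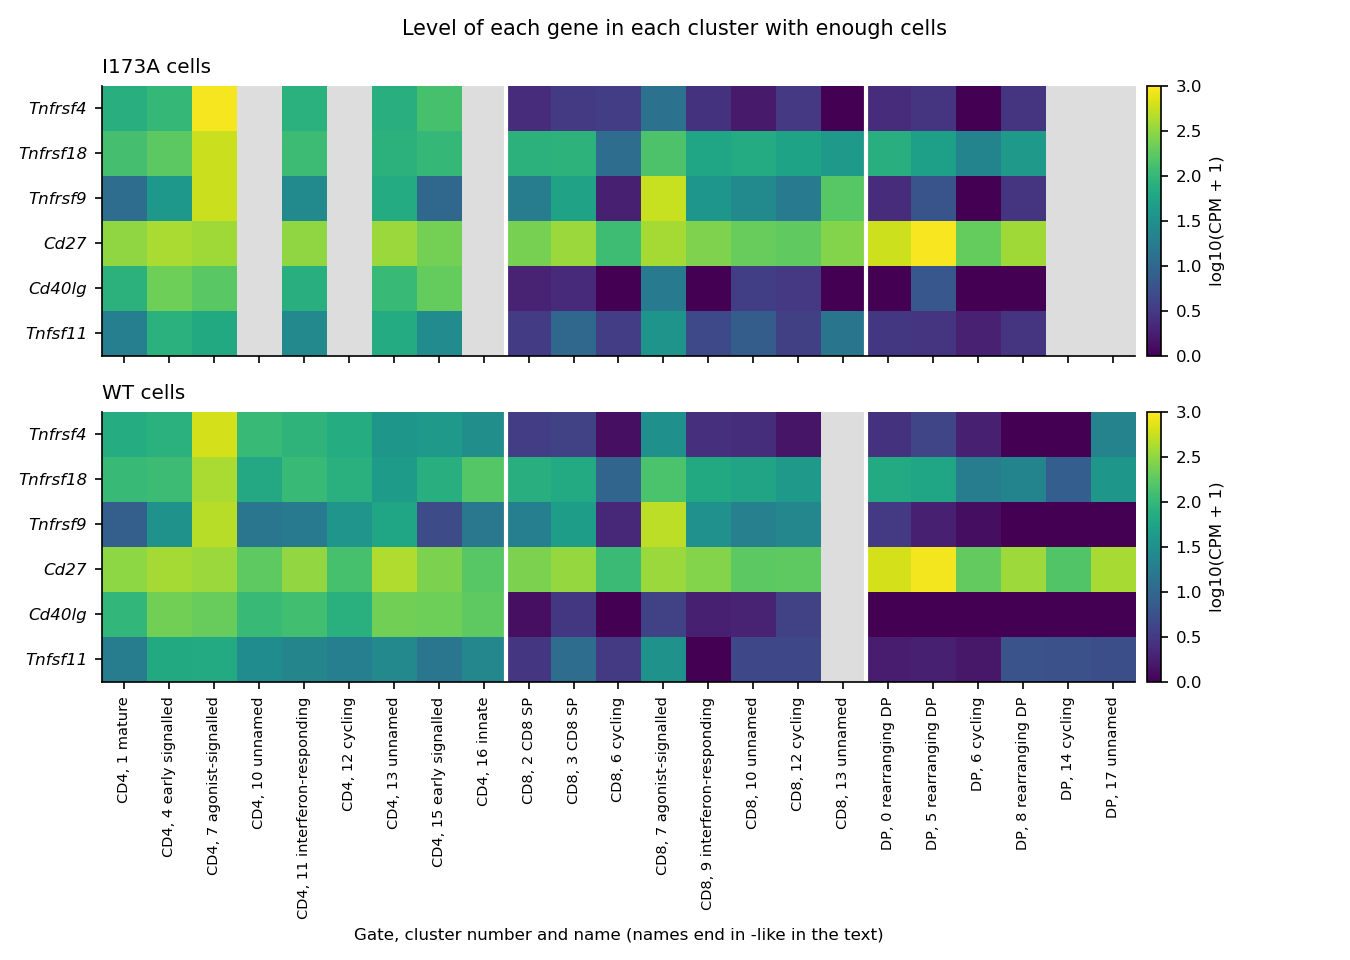
Level of each gene (rows) as log10(CPM + 1) in each gate and cluster with at least 50 cells (columns), in I173A cells (top) and WT cells (bottom); grey marks clusters with fewer cells of that genotype. The agonist-signalled-like columns carry the highest Tnfrsf4, Tnfrsf18 and Tnfrsf9 among the named clusters of the CD4 gate and of the CD8 gate in each genotype, and Tnfrsf4 in the CD8 gate one is 12.1 CPM in I173A and 31.0 CPM in WT cells.

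Tnfrsf4 was at 907 CPM in I173A and 645 CPM in WT cells of cluster 7 in the CD4 gate. That cluster held 9.42% of I173A and 8.27% of WT cells of the gate, but 53.6% of the Tnfrsf4 UMIs of I173A and 44.1% of those of WT cells. Tnfrsf9 was still more concentrated, with 72.04% of its UMIs in I173A and 70.6% in WT cells of the gate, at 579 CPM in I173A and 479 CPM in WT cells of the cluster. Tnfrsf18 was at 578 CPM in I173A and 417 CPM in WT cells of the cluster, with 30.04% of its UMIs in I173A and 26.6% in WT cells of the gate. Both genotypes had the 3 receptors at their highest in this cluster, while Cd27 was at 373 CPM in I173A and 349 CPM in WT cells of it, below the 419.86 CPM in I173A and 398 CPM in WT cells of cluster 4.

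In the agonist-signalled-like cells of the CD8 gate Tnfrsf9 was at 553 CPM in I173A and 507 CPM in WT cells, near its level in the CD4 gate, and these cells were 2.89% of I173A and 3.12% of WT cells but held 39.7% of its UMIs in I173A and 44.4% in WT cells. Tnfrsf18 was at 146 CPM in I173A and 141 CPM in WT cells. Tnfrsf4 reached 12.1 CPM in I173A and 31.0 CPM in WT cells of the same cluster and gate, from 7 UMIs in 4 cells and 22 UMIs in 10 cells. The cluster thus held Tnfrsf9 at a like level in both gates and far less Tnfrsf4 in the CD8 gate. Over the whole CD8 gate the ratio of Tnfrsf4 was 0.807 (0.517 to 1.2469), and 0.536 (0.329 to 0.857) without cycling clusters.

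The ligands followed another order. Cd40lg was at 217 CPM in I173A and 232 CPM in WT cells of the early signalled-like cluster 4 in the CD4 gate, and at 83.1 CPM in I173A and 96.8 CPM in WT cells of the mature-like cluster 1. Tnfsf11 was at 81.9 CPM in I173A and 65.3 CPM in WT cells of cluster 4, and at 18.7 CPM in I173A and 17.8 CPM in WT cells of cluster 1. Cluster 4 held 60.7% of the Tnfsf11 UMIs of I173A and 49.2% of those of WT cells of the gate, and it made up 34.6% of I173A and 27.6% of WT cells. Both ligands were thus lower in cluster 1 than in cluster 4, which carried 5 of the 6 early signalled markers (Nr4a1, Egr1, Egr2, Egr3, Cd69 and Itm2a). The small early signalled-like cluster 15, led by Egr2, was high in Cd40lg, at 194 CPM in I173A and 216 CPM in WT cells. It had Tnfsf11 at 26.9 CPM in I173A (12.3 to 51.1) and 13.98 CPM in WT cells (5.62 to 28.8). This does not separate from cluster 1 beyond counting error.

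Cd27 varied in level among the rearranging DP-like clusters. In cluster 5, whose leading genes include Egln3, Cd24a and Bcl6, it was at 945 CPM in I173A and 897 CPM in WT cells. The name of these cells depends on the resolution, since a DP gate cluster led by Egln3 and Cd24a was named early signalled-like at a finer resolution (351 I173A and 204 WT cells) and a coarser one (185 I173A and 87 WT cells). It was at 583 CPM in I173A and 636 CPM in WT cells of cluster 0, and at 371 CPM in I173A and 361 CPM in WT cells of the shallow cluster 8. Cluster 0 gave a ratio of 0.916 (0.868 to 0.966) and cluster 5 one of 1.05 (0.975 to 1.14). In the DP gate Cd27 also differed with the detection of a TCR α chain. Without cycling clusters it was at 765 CPM in I173A and 739 CPM in WT cells with a productive α chain. It was at 565 CPM in I173A and 612 CPM in WT cells with a β but no α chain. Tnfrsf18 was at 58.6 CPM in I173A and 63.4 CPM in WT cells with an α chain, against 70.9 CPM in I173A and 65.1 CPM in WT cells without, so the 2 receptors of this gate did not follow the α chain alike. A missing α chain is not read as a stage, since 6.87% of I173A and 6.18% of WT cells of the CD4 gate also had a β but no α chain. Cd27 went the other way in the CD4 gate without cycling clusters. With an α chain it was at 347 CPM in I173A and 328 CPM in WT cells there, against 418 CPM in I173A and 378 CPM in WT cells without.

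The genotype ratio within clusters of the CD4 gate was next examined, since the genotypes also differed in their cluster shares. Among clusters with at least 50 cells of each genotype and at least 50 UMIs of the gene in both together, Tnfrsf18 was higher in I173A cells in 5 of 5 clusters, 3 of them with an interval above 1. It was highest in the early signalled-like cluster 4 (1.55, 1.40 to 1.72) and lowest in the interferon-responding-like cluster 11 (1.09, 0.864 to 1.38). Tnfrsf9 was higher in 4 of 4 such clusters, 2 of them with an interval above 1, and Tnfrsf4 in 4 of 5, 3 of them with an interval above 1. Such counts of clusters were not taken over all genes and are a description. The median log2 ratio of all genes in this gate was itself positive, at 0.04.

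**Figure D4:**
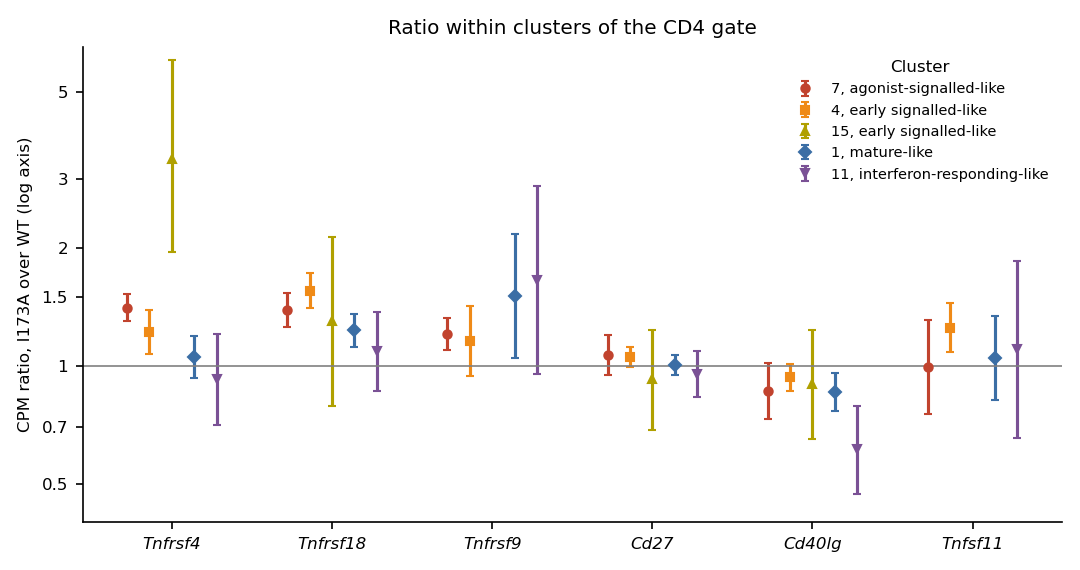
Ratio of CPM in I173A over WT cells (vertical axis, log scale) within named clusters of the CD4 gate for each gene (horizontal axis), where the cluster had at least 50 UMIs of the gene; lines are 95% intervals of counting error. All Tnfrsf18 and Tnfrsf9 markers lie above 1 and all Cd40lg markers below 1.

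For Tnfrsf4 the ratio varied among the clusters. The ratio was 1.41 (1.30 to 1.52) in cluster 7, 1.22 (1.08 to 1.39) in cluster 4 and 1.06 (0.934 to 1.19) in the mature-like cluster 1, and in the small early signalled-like cluster 15 it was 3.37 (1.95 to 6.02), from 45 UMIs in 50 I173A cells and 20 UMIs in 72 WT cells. Without cluster 7 the ratio of Tnfrsf4 over the gate was 1.12, while those of Tnfrsf18 and Tnfrsf9 were 1.36 and 1.31. The values for agonist-signalled-like cells moved with the clustering. At a coarser resolution they were 1.67 for Tnfrsf4, 1.53 for Tnfrsf18 and 1.34 for Tnfrsf9, and at a finer one 1.11 for Tnfrsf4 (1.0002 to 1.24), 1.11 for Tnfrsf18 (0.965 to 1.27) and 1.10 for Tnfrsf9 (0.958 to 1.27). These are other sets of cells. The finer set held 101 I173A and 113 WT cells of the CD4 gate. Of cluster 7, 153 I173A and 145 WT cells went instead to a regulatory T-like cluster with Foxp3, Il2ra, Ctla4, Tnfrsf9 and Tnfrsf4 among its leading genes. That cluster held 194 I173A and 180 WT cells and was described after its values were seen. Tnfrsf4 was at 707 CPM in I173A and 399.81 CPM in WT cells of it (1.77, 1.57 to 1.99). Tnfrsf18 was at 514 CPM in I173A and 317 CPM in WT cells (1.62, 1.42 to 1.86), and Tnfrsf9 was at 504 CPM in I173A and 402 CPM in WT cells (1.256, 1.11 to 1.42). In agonist-signalled-like cells of the CD8 gate the ratios were 1.03 (0.764 to 1.40) for Tnfrsf18 and 1.09 (0.935 to 1.27) for Tnfrsf9.

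Cd40lg was lower in I173A cells in 6 of 6 clusters of the CD4 gate, 3 of them with an interval below 1. In the mature-like cluster 1 the ratio was 0.859 (0.768 to 0.959) and in the interferon-responding-like cluster 11 it was 0.615 (0.473 to 0.793). The remaining such interval was that of the unnamed cluster 13, at 0.459 (0.229 to 0.869), from 14 UMIs in I173A and 37 in WT cells. Cells of cluster 13 were shallow, with a median of 1596 UMIs over all gates. When each cluster was given the same weight in both genotypes, the ratio over the gate was 0.867. Tnfsf11 was higher in 3 of 4 clusters, 1 of them with an interval above 1 (cluster 4, 1.2537, 1.09 to 1.44). Neither count of clusters was taken over all genes, so both are a description.

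Foxp3 encodes a transcription factor of regulatory T cells, and a UMI of it was found in 45 I173A cells (1.69%) and 60 WT cells (1.93%) of the CD4 gate. In the CD8 gate it was found in 0.662% of I173A and 0.795% of WT cells, with no Tnfrsf4 UMI in any of them. The set is therefore not read as a cell type. Tnfrsf4 was at 1133 CPM in I173A (1014 to 1261) and 432 CPM in WT cells (373 to 499) of the CD4 gate set. Tnfrsf18 was at 635 CPM in I173A (547 to 733) and 317 CPM in WT cells (267 to 375), and Tnfrsf9 was at 444 CPM in I173A (371 to 527) and 156 CPM in WT cells (121 to 198). A UMI of Tnfrsf4 was present in 66.7% of these I173A and 61.7% of these WT cells, so the shares of positive cells were closer than the levels. Cells with the invariant TRAV11-TRAJ18 chain of NKT cells, 37 I173A and 45 WT cells, had Tnfrsf18 at 152 CPM in I173A and 149 CPM in WT cells, but 1 UMI of Tnfrsf4 in I173A and 3 in WT cells.

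Whether the receptors occurred in the same cells was read from cells thinned to 1500 UMIs. In the CD4 gate, 46.9% of the I173A cells with a Tnfrsf4 UMI (41.7% to 52.2%) also had a Tnfrsf18 UMI, against 16.8% of those without (15.3% to 18.4%). In WT cells the shares were 33.8% of cells with (29.01% to 38.8%) and 15.7% of cells without Tnfrsf4 (14.3% to 17.1%). Tnfrsf9 was found in 21.4% of I173A cells with and 3.84% of those without Tnfrsf4, and in 15.7% of WT cells with and 3.20% of those without. All 3 receptors were found together in 49 of 2627 I173A cells (1.87%) and 34 of 3062 WT cells (1.11%) of the CD4 gate, but in 0 of 2803 I173A and 1 of 2966 WT cells of the CD8 gate. A count of 0 in 2803 cells, with 3 counts taken as its upper limit, allows a share of up to 0.107% with UMIs of all 3 at this depth. It does not limit the share of cells that express them.

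**Figure D5:**
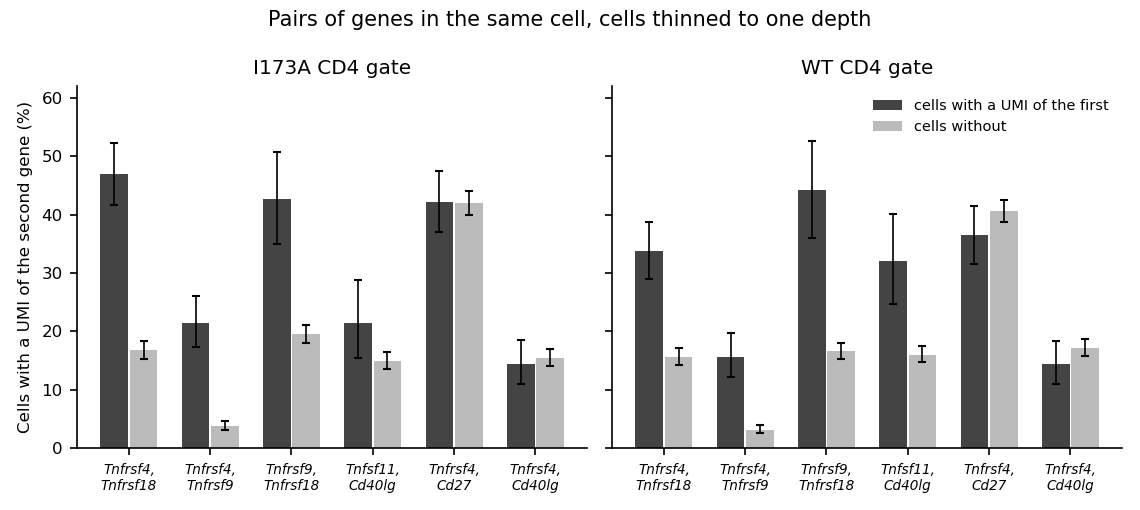
Share of cells in percent with a UMI of the second gene of a pair (vertical axis, from 0) among cells with (dark bars) and without (light bars) a UMI of the first, in I173A (left) and WT cells (right) of the CD4 gate thinned to 1500 UMIs; lines are Clopper-Pearson 95% intervals. The dark bars stand above the light ones for pairs among Tnfrsf4, Tnfrsf18 and Tnfrsf9 and for Tnfsf11 with Cd40lg, and level with them for Tnfrsf4 with Cd27 or Cd40lg.

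Cd27 and Cd40lg were about as frequent in cells with as in cells without Tnfrsf4. Cd27 was found in 42.2% of I173A cells with and 41.9% of those without Tnfrsf4, and in 36.4% of WT cells with and 40.5% of those without. Cd40lg was found in 14.4% of I173A cells with and 15.5% of those without Tnfrsf4, and in 14.4% of WT cells with and 17.2% of those without. For the ligands, 21.5% of I173A cells with a Tnfsf11 UMI (15.4% to 28.8%) had Cd40lg against 14.9% of those without (13.6% to 16.4%), and 32.03% of WT cells with (24.7% to 40.04%) had it against 16.1% of those without (14.7% to 17.4%). These intervals overlap in I173A cells and are apart in WT cells.

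Across the 22 groups of cluster and gate with at least 50 WT cells, which share 3 libraries and differ in depth, Cd40lg on the log2(CPM + 1) scale was most like Zbtb7b, which encodes the CD4-lineage factor ThPOK (Pearson r = 0.97), Gm15417 (0.96) and the sialyltransferase St8sia6 (0.94). Tnfrsf4 was most like Zbtb7b (0.87), Gm15417 (0.87) and Itm2a (0.85). Tnfrsf9 was most like Cish, an inhibitor of cytokine signalling (0.90), the tetraspanin Cd82 (0.89) and Eno3 (0.88). Tnfrsf18 was most like Ndfip1 (0.88), 2310001H17Rik (0.87) and the lymphotoxin gene Ltb (0.87), Tnfsf11 most like Exoc6 (0.84), Itm2a (0.83) and the chemokine receptor Ccr8 (0.81), and Cd27 most like Sec62 (0.91), Otud5 (0.88) and Calcoco1 (0.88). Among the set itself, Tnfrsf4 was closest to Cd40lg (0.86), whereas Tnfrsf9 had a coefficient of 0.74 with Tnfrsf18 and 0.56 with Tnfrsf4. Tnfrsf4 and Cd40lg were both scarce outside the CD4 gate. Their coefficients with each other and with Zbtb7b cannot be told apart from the difference between gates. Within the CD4 gate Cd40lg was not more frequent in cells with Tnfrsf4, as given above.

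The binding partners of the 6 proteins were scarce in the sorted cells. Tnfsf4 (OX40 ligand) was at most 0.656 CPM, Tnfsf9 (CD137 ligand) at most 5.31 CPM, Cd70 at most 0.0487 CPM, Tnfrsf11a (RANK) at most 0.418 CPM and Cd40 at most 0.0988 CPM in any of the 6 groups. No UMI of Tnfsf18 (GITR ligand) was counted in any group, which, at 3 counts per group, allows up to 0.133 CPM in WT cells of the CD8 gate, the group with the most UMIs, and up to 0.346 CPM in I173A cells of the DP gate, the group with the fewest.

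Of the 23 other TNF receptors, 6 were at or above 5 CPM in each gate. Of these, 5 were higher in I173A cells of the CD4 gate and 1 was at least 25% higher, Tnfrsf13b (TACI), at 50.4 CPM in I173A and 39.7 CPM in WT cells (ratio 1.27, 1.15 to 1.40), while Tnfrsf14 (HVEM) was lowest at 0.898 (0.759 to 1.06). The median log2 ratio of these receptors was 0.23 in the CD4 gate, 0.26 in the CD8 gate and 0.35 in the DP gate, against 0.04, 0.03 and 0.08 over all genes. Tnfrsf1b (TNF receptor 2) in the CD8 gate, at 44.5 CPM in I173A and 33.05 CPM in WT cells, was at least 25% higher, and in the DP gate 4 of 6 were, with Tnfrsf14 highest at 1.69 (1.10 to 2.63). Without cycling clusters the medians were 0.24 in the CD4 gate, 0.02 in the CD8 gate and 0.11 in the DP gate. The count at least 25% higher was then 2 in the CD4 gate, 0 in the CD8 gate, where Tnfrsf1b was at 1.12 (1.003 to 1.24), and 1 in the DP gate, Tnfrsf14 at 1.32 (0.841 to 2.11). By that size 5.00% of all genes were higher in the CD4, 10.6% in the CD8 and 16.3% in the DP gate. Without cycling clusters these shares were 5.21%, 4.25% and 8.05% in the same order.

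Of the 15 other TNF ligands, 5 were at or above 5 CPM in the CD4 gate, where 1 of the 5 was higher in I173A cells and none was 25% higher or 20% lower. Ltb, a subunit of lymphotoxin that acts on stromal cells, was at 682 CPM in I173A and 774 CPM in WT cells, a ratio of 0.881 (0.860 to 0.902), and Tnf had the highest ratio, 1.15 (1.01 to 1.30). All 5 were higher in the CD8 gate, 2 of them by at least 25%, led by Tnf at 16.1 CPM in I173A and 10.6 CPM in WT cells (1.53, 1.28 to 1.82). Without cycling clusters 3 of the 5 were still higher in the CD8 gate, none of them by 25%. There Ltb turned from a ratio of 1.07 to 0.859 (0.839 to 0.880) and Lta from 1.06 to 0.859 (0.734 to 1.004). Among all genes of the CD8 gate 10.6% were at least 25% higher, and 4.25% without cycling clusters. Ltb was at 319.52 CPM in I173A and 243 CPM in WT cells of the DP gate (1.31, 1.24 to 1.39). Without cycling clusters its ratio there was 1.03 (0.968 to 1.09).

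Downstream genes were close to even in the CD4 gate. Of 14 adaptors and regulators of these receptors, none was 25% higher or 20% lower there, where the median log2 ratio was -0.01 and values ran from 0.842 for Tank (0.784 to 0.903) to 1.18 for Traf6 (1.06 to 1.31). In the CD8 gate 2 were higher and 1 lower by these sizes, the lower one being Siva1, which binds the CD27 tail, at 69.9 CPM in I173A and 139 CPM in WT cells. For the DP gate the counts were 5 higher and 2 lower. Across all genes 10.6% were higher and 10.9% lower by these sizes in the CD8 gate, and 16.3% higher and 10.5% lower in the DP gate. Without cycling clusters 1 of the 14 was higher and none lower in the CD8 gate, with Siva1 at 0.882 (0.792 to 0.982), and 1 was higher and 1 lower in the DP gate. The share of all genes lower by 20% was not computed without these clusters. Of all genes 4.25% were then higher in the CD8 gate and 8.05% in the DP gate.

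Of 16 NF-κB genes, 1 passed the same sizes in each direction in the CD4 gate: Nfkbid, an atypical IκB protein and one of the markers that named cluster 7, at 84.6 CPM in I173A and 61.6 CPM in WT cells (1.37, 1.27 to 1.48), and Relb, at 47.4 CPM in I173A and 59.3 CPM in WT cells (0.798, 0.729 to 0.874). Nfkbid had the highest ratio of the list in the CD8 gate (1.47, 1.31 to 1.66) and the DP gate (1.45, 1.17 to 1.81) as well. Without cycling clusters it was at 1.2452 in the CD8 gate (1.10 to 1.41) and at 1.28 in the DP gate (1.005 to 1.63). Over the list, 3 genes in the CD8 gate and 5 in the DP gate were at least 25% higher and none 20% lower. Across all genes 10.6% were higher and 10.9% lower by these sizes in the CD8 gate. In the DP gate 16.3% were higher and 10.5% lower, and in the CD4 gate 5.00% higher and 2.08% lower. Without cycling clusters none of the list was higher and 2 were lower in the CD8 gate, and 1 was higher and 1 lower in the DP gate. The share of all genes lower by 20% was not computed without these clusters, so the lower counts have no background. Of all genes 4.25% were then higher in the CD8 gate and 8.05% in the DP gate. The list's median log2 ratio was 0.04 in the CD4 gate, the same as over all genes to this precision.

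The 10 costimulators and coinhibitors of other families (Cd28, Icos, Ctla4, Pdcd1, Cd2, Cd226, Slamf1, Slamf6, Cd5 and Cd6) had a ratio above 1 in 10 of 10 cases in every gate, but without cycling clusters in 6 of 10 in the CD8 gate. The median log2 ratio of all genes was itself positive, at 0.04 in the CD4, 0.03 in the CD8 and 0.08 in the DP gate. Of the 10 genes, 3 were at least 25% higher in the CD4 gate, led by Pdcd1 (PD-1), an inhibitory receptor and one of the markers that named cluster 7, at 31.4 CPM in I173A and 19.4 CPM in WT cells (1.62, 1.42 to 1.85). Cd226 was lowest at 1.01 (0.913 to 1.11), and Cd2 was also at 1.01 (0.987 to 1.03), with intervals that include 1. Of the same genes, 5 were so in the CD8 gate, with Cd6 highest (1.40, 1.33 to 1.47), and in the DP gate 9 were, with Ctla4 highest at 10.97 CPM in I173A and 5.63 CPM in WT cells (1.95, 1.39 to 2.75). Among all genes 5.00% were at least 25% higher in the CD4 gate, 10.6% in the CD8 gate and 16.3% in the DP gate. Without cycling clusters the count of the 10 was 3 in the CD4 gate, 0 in the CD8 gate and 4 in the DP gate, with medians of 0.24, 0.10 and 0.22 on the log2 scale. The shares of all genes were then 5.21% in the CD4, 4.25% in the CD8 and 8.05% in the DP gate.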

How the data were processed

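The authors deposited raw UMI counts per gene and barcode, with hashtag counts in the same matrices, and TCR contig tables with the UMI count behind each contig. Cell Ranger 6.0.1 and the builds GRCm38 and mm10 are named, per the submitters' processing notes, and 3.1.0 is the software version of the matrices, per the file headers. Other filters applied before deposit are not given in the sources used here. The genes and lists were chosen with earlier results of these data known.

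Barcodes were assigned to a hashtag at 10 or more counts if these were 4 times those of every other hashtag; barcodes with several hashtags were left out as doublets, and doublets within a genotype remain. Hashtag 5 has no genotype in the labels. Cells under 500 genes or over 10% mitochondrial UMIs were removed, which left 16884. UMIs were summed per genotype and gate and divided by the group's total (CPM). Levels carry exact Poisson, ratios exact conditional and shares Clopper-Pearson intervals, all at 95% (SciPy 1.17.1). A count of 0 was given 3 counts as its upper limit. For shares, each cell was thinned to 1500 UMIs, which left out 1.39% to 2.40% of cells per group in the CD4 and CD8 gates, 10.6% of I173A and 12.3% of WT cells in the DP gate.

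Clustering used Scanpy 1.11.5 and leidenalg 0.10.2 (10000 UMIs per cell, 2000 variable genes without TNF family and TCR segment genes, 30 principal components, 15 neighbours, resolution 1). Of 19 clusters, 15 were named from marker lists and 4 were not; cluster 10, high in replication genes, is one of the latter and is not counted as cycling. Genes were counted as higher or lower at a mean of at least 5 CPM and a difference of at least 25% higher or 20% lower between genotypes, and a ratio of 2 or 0.5 between gates. The text names the 6 genes, the list genes with the highest and lowest ratio, the partners of the 6 proteins, and the 3 genes most like each by Pearson correlation among genes with at least 50 CPM in a group. Genes were matched to RefSeq (GRCm38.p6) by symbol for coordinates and sequences. Tools ran under Python 3.11.15.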

Additional observations from a re-analysis of the deposited data

Results flagged for a closer look

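Cells with hashtag 5 alone, which the labels assign to no genotype, were in all 3 libraries and entered no comparison above. Some of their levels lay above those of WT cells of the same gate by more than counting error. In the CD4 gate, Tnfrsf4 was at 141 CPM in hashtag 5 cells, against 160.02 CPM in I173A and 121 CPM in WT cells, and Tnfrsf18 at 145 CPM, against 182 CPM in I173A and 129 CPM in WT cells. Tnfrsf9 was at 73.7 CPM in hashtag 5 cells of that gate, against 75.9 CPM in I173A and 56.1 CPM in WT cells. Tnfsf11 was at 45.7 CPM, against 44.1 CPM in I173A and 35.2 CPM in WT cells. In the CD8 gate Tnfrsf18 was at 57.8 CPM in hashtag 5 cells, against 74.8 CPM in I173A and 53.2 CPM in WT cells. Cd27 in the DP gate was at 472 CPM in hashtag 5 cells, against 579.57 CPM in I173A and 469.87 CPM in WT cells. The labels do not say what hashtag 5 marks, and the part of any difference between animals in the ratios of I173A to WT cells was not tested.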

How the results depend on the processing

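Ratios of I173A to WT cells kept within their counting intervals, for all 6 genes in all 3 gates, under a stricter and a looser hashtag call, without a cell filter and with mitochondrial, ribosomal and TCR genes out of the total. The call of 25% higher was lost under 3 of these for Tnfsf11 in the CD4 gate (1.2405 to 1.2467) and under the looser hashtag call for Tnfrsf9 in the CD8 gate (1.24). Without cycling clusters the CD8 gate gave 1.13 for Tnfrsf18, 1.02 for Tnfrsf9 and 1.03 for Cd27, and the DP gate 1.07 for Tnfrsf18 and 0.979 for Cd27, which turned its direction. With equal cluster shares the CD4 gate gave 1.22 for Tnfrsf9, 1.01 for Cd27 and 0.867 for Cd40lg, the CD8 gate 1.15 for Tnfrsf18, 1.14 for Tnfrsf9 and 1.02 for Cd27, and the DP gate 1.07 for Tnfrsf18 and 0.971 for Cd27, again turned. As a mean of per-cell CPM, the CD8 gate gave 1.23 for Tnfrsf18, 1.14 for Tnfrsf9 and 1.07 for Cd27, and the DP gate 1.03 for Cd27. With the median gene ratio set to 1, Cd27 in the DP gate was at 1.17. Without agonist-signalled clusters, an alternative chosen after seeing the data, Tnfrsf4 in the CD4 gate was at 1.12. At 1.5-fold, 0 genes were higher in each of the 3 gates. Without the floor of 5 CPM, 2 genes were higher and 1 lower in the DP gate. Without cycling clusters, also chosen after seeing the data for counts, 0 genes were higher in the CD8 gate and 0 in the DP gate. Shares of cells moved beyond their intervals in 32 of 36 cases without thinning and in 26 of 36 with cells thinned to 1000 UMIs, since a share depends on depth. Leaving out a replicate was not possible with 1 sample per group. No paired analysis was possible because no result comes from a test and each group is 1 sample. Depth limits the scarce genes: Cd40lg had 29 UMIs in I173A and 22 UMIs in WT cells of the CD8 gate, with a ratio of 1.69 (0.935 to 3.08), and Tnfrsf4 had 14 UMIs in I173A and 23 UMIs in WT cells of the DP gate, with a ratio of 0.711 (0.338 to 1.44).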
